A study of Oryza sativa with 9 samples.

Results

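The transcripts described here are 80 gene loci of developing rice seeds whose level was raised in both lines that carry an altered RBP-P. They were chosen from 55986 loci of the deposited table by 3 conditions on RPKM, a read density normalized to exon length and to library depth. The mean over the 9 libraries had to be at least 1 RPKM, which 16064 loci reached. The lowest of the 6 mutant libraries had to be at least 1.5 times the highest of the 3 wild-type libraries. The highest wild-type library had to hold at least 10% of the lowest mutant library, which keeps out genes switched from off to on. Read literally, these conditions took in 95 loci, but 15 of them met the ratio only because the lowest mutant library and all wild-type libraries were at 0, and these were left out. The 80 members are 0.498% of the loci tested. Since every library took part in the choice, the difference between mutants and wild type is a description of the members, and no test of it is given for them.

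RNA-seq libraries were made from total RNA of dehulled seeds collected 10 to 14 days after flowering, from rice (Oryza sativa) grown at 27 °C in 12 h light and 12 h dark. The line P1MH carries the amino acid change G401S in RBP-P, the line P3MH carries A252T, and the wild type (WT) carries neither. Each genotype had 3 libraries, described as biological repeats. Each change is represented by 1 line, so the amino acid change cannot be told apart from anything else in which that line differs from WT. The seeds were whole apart from the hull, so fewer cells of a type and less RNA per cell cannot be told apart in any value below.

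RBP-P is an RNA-binding protein of the rice seed that takes part in carrying storage protein messenger RNAs to the endoplasmic reticulum. At the stage sampled, the endosperm fills with starch and with glutelins and prolamines, while the embryo and the aleurone layer mature beside it. The deposited table gives no gene names. Of the 80 members, 7 could be given a checked name from RefSeq (assembly ASM3414082v1), and the other 73 are named by locus only, with no function assigned. Positions are those of the deposited table, whose genome build is not given in the sources used here.

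The library labelled P1MH replicate 3 stood apart from its group at genes that were on in 1 mutant line and at 0 in the other. A set of 46 genes separated the other P1MH libraries from all P3MH libraries by being at 1 RPKM or more in one and at 0 in the other. Of 37 such genes on in P1MH replicates 1 and 2, the library labelled P1MH replicate 3 was at 0 for 35. Of the 9 on in P3MH, it was at 1 RPKM or more for 9. It thus lay with P3MH at 44 of the 46 genes and with its own label at 1. When P1MH replicates 1 and 2 were set against P3MH in the same way, 1 and 2 genes were available. None of the 46 genes is a member. Over all genes tested the division was less clear. On log2(RPKM + 1), that library correlated at 0.952 and 0.96 with P1MH replicates 1 and 2, and at 0.955 to 0.966 with P3MH. P1MH replicates 1 and 2 correlated at 0.964 with each other and at 0.942 to 0.966 with P3MH. The library was kept under its label, and each comparison between the mutant lines is given with and without it.

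**Figure D1:**
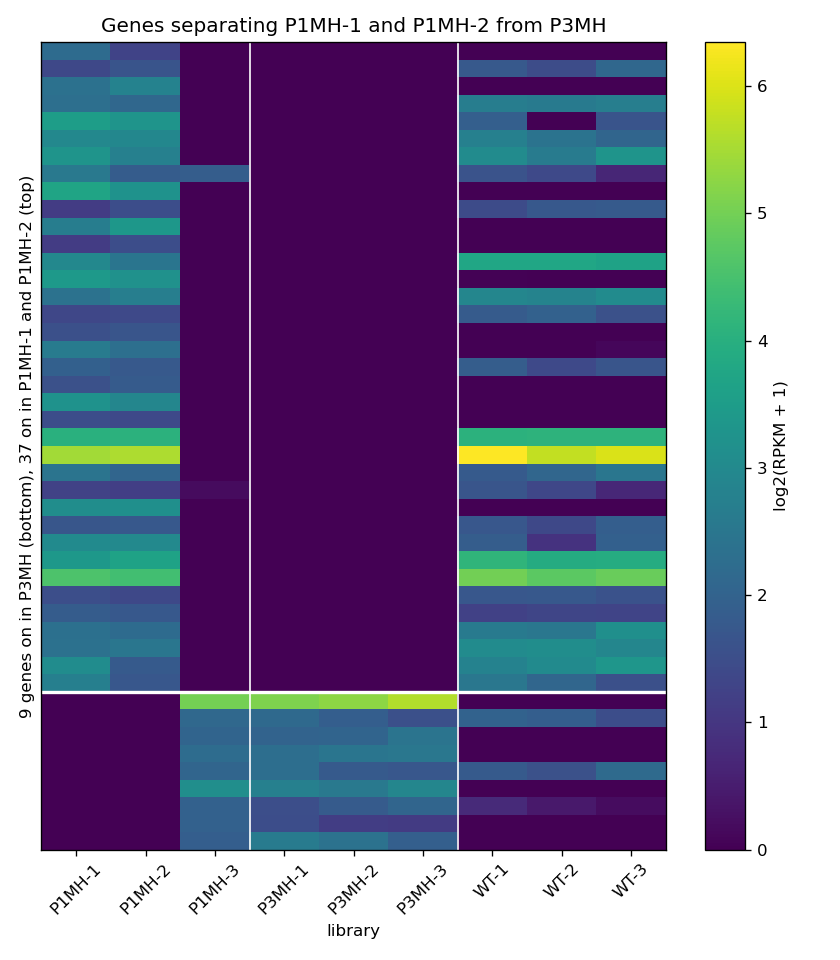
Level of the 46 genes that separate P1MH replicates 1 and 2 from P3MH, as log2(RPKM + 1), with 1 row per gene and 1 column per library. In the column of the library labelled P1MH replicate 3, 35 of the 37 upper genes are at 0, and all 9 lower genes are on.

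Most of the 15 loci at 0 in WT and in the lowest mutant library showed the same division. Of these, 7 were found almost only in P1MH replicates 1 and 2, and 5 only in P3MH and the library labelled P1MH replicate 3. All of these but LOC_Os06g10355 and LOC_Os11g45850 are among the genes used above to separate the lines, so they are no separate evidence. LOC_Os03g04150 had 0, 0 and 31.6 RPKM in the P1MH libraries, 33.5, 37.4 and 47.6 RPKM in the P3MH libraries and 0 RPKM in all WT libraries. Each of the 15 was at 0 in at least 1 mutant library, so none is counted as a member.

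Recovered read totals were 5865007 to 6522918 in P1MH, 6062155 to 7379192 in P3MH and 6814570 to 7498434 in WT. At this depth, 3 reads on a transcript of 1 kb correspond to 0.40 to 0.51 RPKM. Exon lengths were recovered as the smallest that gave whole reads in all 6 mutant libraries, with steps of 0.5 read allowed in WT only. Such a length was found for 16062 of the 16064 genes tested. The share of 0.0% on a step of 0.5 read in the mutant libraries was thus set in advance and is no result. In the WT libraries, 46.5 to 47.6% of the values of tested genes fell on such a step. Among the members' own values above 0, the share in WT was 28.0 to 37.8%. Whether the deposited columns of the mutants also hold steps of 0.5 read was not tested. RBP-P itself (LOC_Os01g16090) was at 10.9, 10.4 and 7.04 RPKM in the P1MH libraries, 8.71, 11.9 and 7.87 RPKM in the P3MH libraries and 16.2, 12.9 and 12.7 RPKM in the WT libraries. Its difference from WT did not pass limma's test (adjusted p = 0.107 in P1MH and 0.151 in P3MH), and a changed amino acid need not alter its level, so this is no check of the labels.

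Summed over the members, the libraries held 1674, 1199 and 1661 RPKM in P1MH, 1398, 1574 and 1200.0 RPKM in P3MH and 332, 411 and 362 RPKM in WT. LOC_Os05g26620 made up much of these sums, and without it they were 1168, 989 and 1167 RPKM in P1MH, 1038, 1190.0 and 944 RPKM in P3MH and 297, 287 and 255 RPKM in WT. The median member stood at 4.15 to 5.09 RPKM among the mutants and at 1.11 to 1.12 RPKM in the WT libraries. The members were 0.228 to 0.311% of all RPKM in the mutant libraries and 0.063 to 0.073% in WT.

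The ratio of the lowest mutant to the highest WT library, which is what the choice rests on, ran from 1.51 to 9.87 with a median of 1.87. It was below 2 for 46 members, between 2 and 3 for 18 and at least 3 for 16. For the 72 members with more than 3 reads in some WT library, the median fold over the WT mean was 4.0 in P1MH and 3.18 in P3MH. The lowest and highest folds were 2.04 and 16.7 in P1MH, and 1.83 and 14.0 in P3MH. With the other 8 members set at a floor of 3 reads per WT library, the medians over all 80 were 4.03 in P1MH and 3.42 in P3MH. Of the 72 members, 68 were at least 2-fold higher in both lines.

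**Figure D2:**
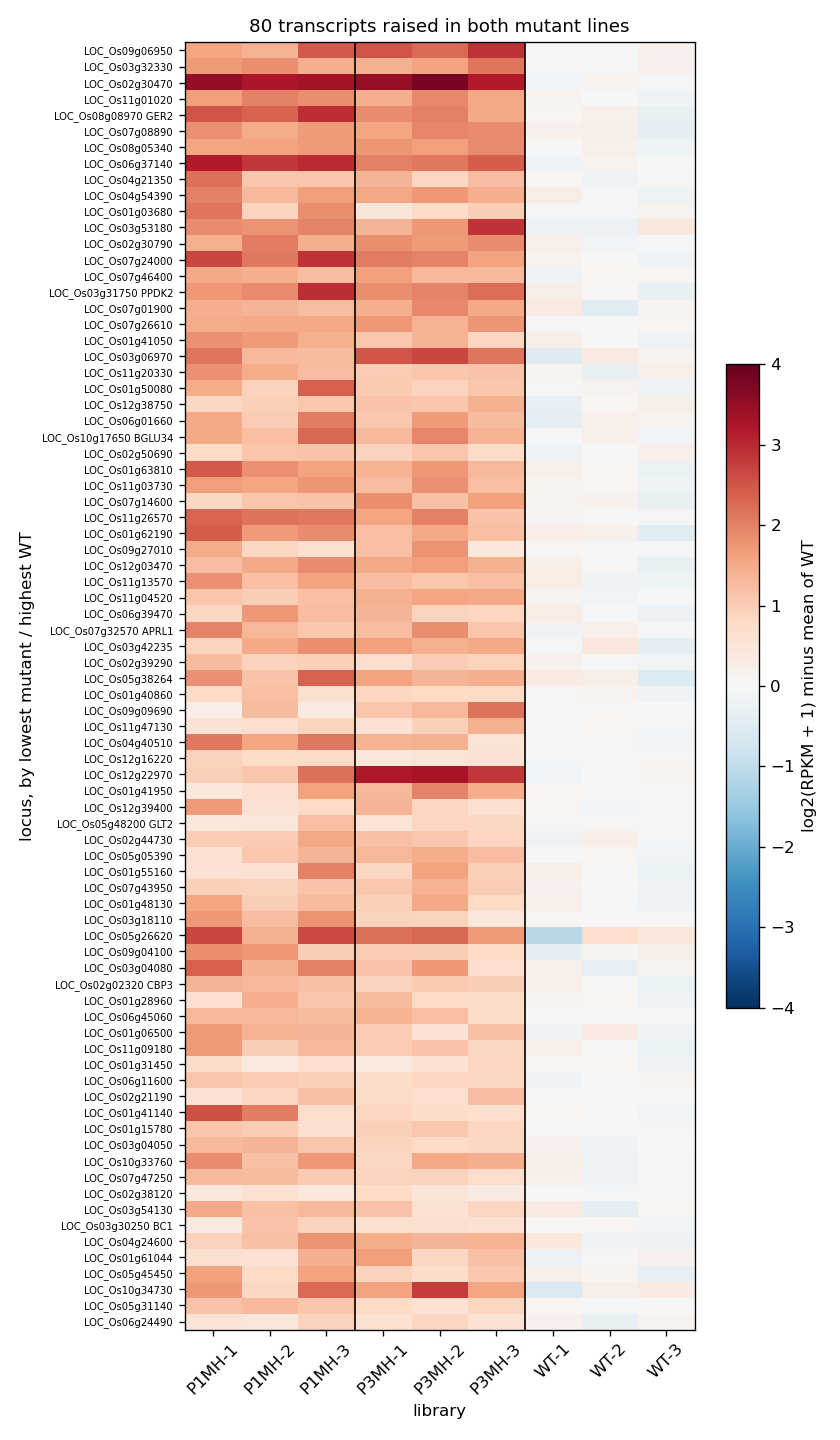
Level of each of the 80 members in each library, as log2(RPKM + 1) minus the mean of the WT libraries, with members ordered from the highest ratio of lowest mutant to highest WT library. All 6 mutant columns lie above the WT columns for every member because the choice required it, and the depth of the colour differs between members and between libraries of 1 line.

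All 6 mutant libraries lay above all 3 WT libraries at 636 of the 16064 genes tested, 3.96% of them, and all 6 lay below WT at 1744, 10.9%. The 80 members are the part of those 636 that also passed the ratio and the WT share. The same conditions turned round, for genes lowered in both lines, gave 149 loci on the deposited values. After rescaling each library by its median ratio, the counts were 120 raised, of which 78 are members, and 115 lowered. In limma's fit on log2(RPKM + 1), the median gene stood 0.10 below WT in P1MH and 0.13 below WT in P3MH. Which direction holds more genes therefore depends on the scaling.

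The named members of primary metabolism were PPDK2, GLT2 and APRL1. PPDK2 (LOC_Os03g31750, chromosome 3, 18153143 to 18160127) encodes a pyruvate phosphate dikinase, which interconverts pyruvate and phosphoenolpyruvate. It was at 26.3, 29.5 and 62.3 RPKM in the P1MH libraries, 28.4, 31.2 and 37.7 RPKM in the P3MH libraries and 8.61, 7.54 and 5.67 RPKM in the WT libraries. The library labelled P1MH replicate 3 was well above the other mutant libraries, and the WT libraries lay together at the bottom. The means were 39.3 ± 19.9 RPKM in P1MH, 32.4 ± 4.78 RPKM in P3MH and 7.28 ± 1.49 RPKM in WT (SD, n = 3 each), which is 5.41-fold in P1MH and 4.46-fold in P3MH relative to the WT mean. Its ratio of lowest mutant to highest WT library was 3.05.

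The other gene of this enzyme, PPDKB (LOC_Os05g33570), known from the floury endosperm mutant flo4, is no member and was expressed at far higher level. It was at 1398, 1805 and 1307 RPKM in the P1MH libraries, 2214, 2892 and 2202 RPKM in the P3MH libraries and 2441, 2535 and 2429 RPKM in the WT libraries. All P1MH libraries lay below all WT libraries, whereas the P3MH libraries lay on both sides of WT. PPDKB fell by 0.73 on the log2 scale in P1MH (SE 0.19, limma, adjusted p = 0.0329), and was not called in P3MH (log2 difference -0.03, SE 0.19, adjusted p = 0.949). The P1MH call was lost after median-ratio rescaling (adjusted p = 0.0824), after quantile normalization (adjusted p = 0.101) and without the library labelled P1MH replicate 3 (adjusted p = 0.109). It was also lost without P1MH replicate 1 (adjusted p = 0.0906) and without WT replicate 1, 2 or 3 (adjusted p = 0.0724, 0.119 and 0.0986). Reads shared between the PPDK genes could move from one to the other, which was not tested.

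GLT2 (LOC_Os05g48200, chromosome 5, 27622654 to 27636451), an NADH-dependent glutamate synthase of ammonium assimilation, was a low transcript. It was at 1.11, 1.16 and 2.66 RPKM in the P1MH libraries, 1.27, 1.86 and 1.84 RPKM in the P3MH libraries and 0.625, 0.626 and 0.510 RPKM in the WT libraries. The means were 1.64 ± 0.879 RPKM in P1MH, 1.66 ± 0.334 RPKM in P3MH and 0.587 ± 0.0669 RPKM in WT (SD, n = 3 each). APRL1 (LOC_Os07g32570, chromosome 7, 19409953 to 19413299) is named for the adenosine phosphosulfate reductase family, which acts in sulfate assimilation. It was at 39.2, 24.4 and 20.8 RPKM in the P1MH libraries, 23.1, 36.2 and 21.0 RPKM in the P3MH libraries and 8.26, 10.7 and 8.77 RPKM in the WT libraries. One library of each line, P1MH replicate 1 and P3MH replicate 2, was well above the others of that line, and its means were 3.04-fold in P1MH and 2.89-fold in P3MH relative to the WT mean.

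Of the members that act on proteins and glycosides, CBP3 (LOC_Os02g02320, chromosome 2, 767270 to 772138) encodes a serine carboxypeptidase, which removes amino acids from the end of peptides. It was at 52.3, 51.2 and 45.5 RPKM in the P1MH libraries, 37.8, 41.6 and 39.4 RPKM in the P3MH libraries and 22.6, 20.4 and 16.3 RPKM in the WT libraries. The libraries of each genotype lay close together, all P1MH libraries were above all P3MH libraries, and the means were 49.7 ± 3.67 RPKM in P1MH, 39.6 ± 1.87 RPKM in P3MH and 19.8 ± 3.21 RPKM in WT (SD, n = 3 each). BGLU34 (LOC_Os10g17650, chromosome 10, 8920261 to 8926172) belongs to the beta-glucosidases, which release glucose from glucosides. It was at 7.86, 5.96 and 14.0 RPKM in the P1MH libraries, 6.44, 10.8 and 7.06 RPKM in the P3MH libraries and 1.87, 2.50 and 1.80 RPKM in the WT libraries. The highest value was again that of the library labelled P1MH replicate 3, and the means were 4.51-fold in P1MH and 3.95-fold in P3MH relative to the WT mean.

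Of the members tied to the cell wall, BC1 (LOC_Os03g30250, chromosome 3, 17260196 to 17262960) encodes a COBRA-like protein that is needed for cellulose in secondary walls and is known from brittle culm mutants. It was at 1.13, 2.66 and 2.09 RPKM in the P1MH libraries, 1.56, 1.54 and 1.48 RPKM in the P3MH libraries and 0.687, 0.728 and 0.523 RPKM in the WT libraries. Its ratio of 1.55 is near the threshold, and it overlaps LOC_Os03g30260, from which its reads cannot be told apart without strand. GER2 (LOC_Os08g08970, chromosome 8, 5222214 to 5223311) is a germin-like protein, a family of secreted glycoproteins of the cell wall. It was at 5.99, 5.27 and 8.64 RPKM in the P1MH libraries, 3.61, 4.04 and 2.59 RPKM in the P3MH libraries and 0.312, 0.426 and 0 RPKM in the WT libraries. These WT values rest on 2, 3 and 0 reads, so no fold is given, and the P1MH libraries all lay above the P3MH libraries.

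GER2 sits in a cluster of germin-like genes on chromosome 8 whose other genes are not members. GER3 (LOC_Os08g08960) was far more abundant, at 2985, 4314 and 4043 RPKM in the P1MH libraries, 3982, 3193 and 2933 RPKM in the P3MH libraries and 2731, 2842 and 2542 RPKM in the WT libraries, and limma called it against WT in neither line (adjusted p = 0.171 in P1MH and 0.425 in P3MH). GER1 (LOC_Os08g08980) was at 11.4, 6.61 and 37.4 RPKM in the P1MH libraries, 11.9, 23.2 and 14.9 RPKM in the P3MH libraries and 3.28, 3.80 and 4.88 RPKM in the WT libraries. All its mutant libraries lay above WT with a ratio of 1.35, below the threshold for members. Its difference from WT did not pass in limma's fit (adjusted p = 0.0875 in P1MH and 0.0903 in P3MH). GER1 passed in P3MH without the library labelled P1MH replicate 3 (adjusted p = 0.000808), and in both lines without P1MH replicate 2 (adjusted p = 0.0151 in P1MH and 0.0273 in P3MH). GER6 (LOC_Os08g09010), below the level tested, was at 2.42, 2.04 and 0.467 RPKM in P1MH and 0.313, 0.670 and 0.138 RPKM in P3MH. Its WT libraries were at 0.149, 0.406 and 0 RPKM. Reads shared among these similar genes may be assigned to any of them.

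**Figure D3:**
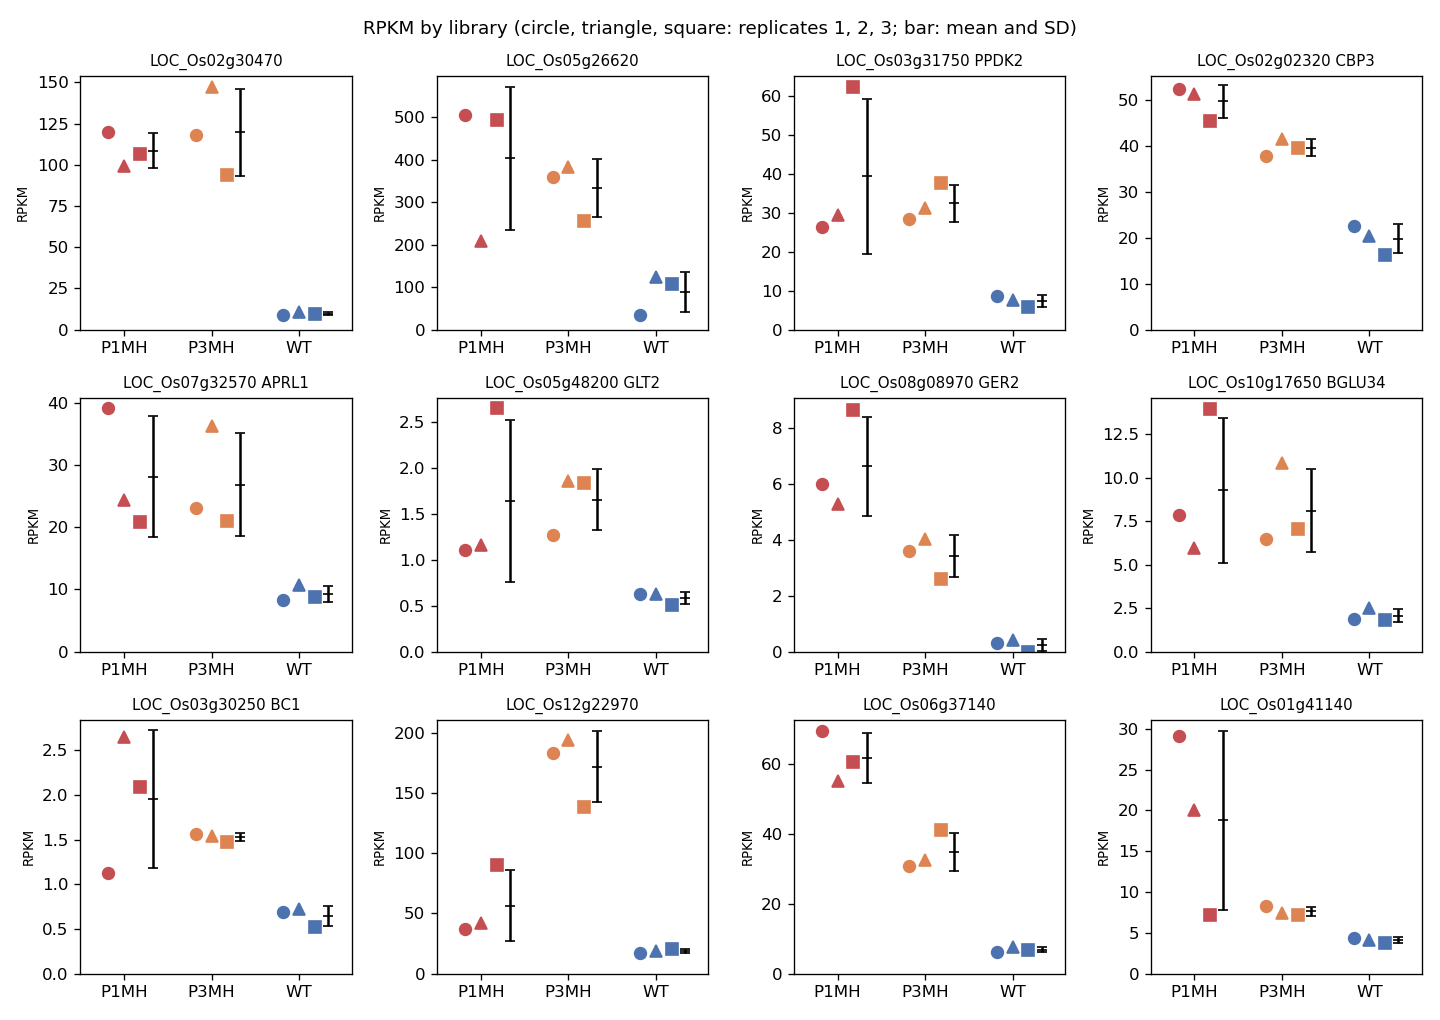
RPKM of 12 members by library, with replicates 1, 2 and 3 of P1MH, P3MH and WT as circle, triangle and square and the mean with SD beside them (n = 3 each). The WT points lie below all mutant points in every panel. The panels of CBP3, GER2, LOC_Os12g22970 and LOC_Os06g37140 also show the mutant lines apart from each other.

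The member with the highest level was LOC_Os05g26620 (chromosome 5, 15464454 to 15465082), at 506, 209.9 and 494 RPKM in the P1MH libraries, 359.9, 384 and 256 RPKM in the P3MH libraries and 35.2, 124 and 108 RPKM in the WT libraries. Its WT libraries spread widely, with replicate 1 far below the others, and P1MH replicate 2 was far below the other P1MH libraries. The means were 403 ± 168 RPKM in P1MH, 333 ± 68.3 RPKM in P3MH and 88.9 ± 47.2 RPKM in WT (SD, n = 3 each). LOC_Os02g30470 (chromosome 2, 18145264 to 18146079) combined a high level with the third highest ratio, 8.71. It was at 119.9, 99.4 and 106 RPKM in the P1MH libraries, 118, 147 and 94.0 RPKM in the P3MH libraries and 8.72, 10.8 and 9.34 RPKM in the WT libraries. The mutant lines overlapped, and the means were 11.3-fold in P1MH and 12.4-fold in P3MH relative to the WT mean.

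LOC_Os11g26570 (chromosome 11, 15223324 to 15224819) was at 136, 121 and 116 RPKM in the P1MH libraries, 79.9, 109 and 58.7 RPKM in the P3MH libraries and 28.3, 26.0 and 24.6 RPKM in the WT libraries. Its P1MH libraries all lay above its P3MH libraries. LOC_Os01g63810 (chromosome 1, 37021488 to 37024131) was at 103, 66.5 and 58.0 RPKM in the P1MH libraries, 49.2, 62.6 and 46.4 RPKM in the P3MH libraries and 20.9, 19.4 and 14.8 RPKM in the WT libraries, with P1MH replicate 1 well above the rest. LOC_Os12g03470 (chromosome 12, 1359572 to 1366649) was at 35.3, 43.6 and 56.1 RPKM in the P1MH libraries, 42.9, 47.9 and 40.7 RPKM in the P3MH libraries and 17.2, 15.1 and 11.5 RPKM in the WT libraries. For this locus the lines overlapped, and the means were 3.08-fold in P1MH and 3.00-fold in P3MH relative to the WT mean.

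Of the 8 members with the highest ratio of lowest mutant to highest WT library, 3 were almost undetected in WT, with at most 3 reads in any WT library. These were GER2, above, and 2 loci without a name. LOC_Os09g06950 (chromosome 9, 3355804 to 3356603) was at 2.13, 1.74 and 4.79 RPKM in the P1MH libraries, 5.02, 4.12 and 6.78 RPKM in the P3MH libraries and 0, 0 and 0.176 RPKM in the WT libraries, the WT values resting on 0, 0 and 1 reads. LOC_Os03g32330 (chromosome 3, 18495806 to 18501143) was at 2.45, 2.81 and 1.88 RPKM in the P1MH libraries, 1.81, 2.20 and 3.68 RPKM in the P3MH libraries and 0, 0 and 0.188 RPKM in the WT libraries. Its WT libraries held 0, 0 and 2.5 reads at the shortest exon length that fits. A longer length also fits and would give more reads. No fold is given for either locus, since the recovered WT reads were at or under 3. LOC_Os11g01020 (chromosome 11, 3948 to 7498) was at 2.76, 3.80 and 3.29 RPKM in the P1MH libraries, 2.26, 3.54 and 2.48 RPKM in the P3MH libraries and 0.307, 0.209 and 0.0738 RPKM in the WT libraries, and its highest WT library held 4 reads. The WT share of at least 10% caps the ratio of a member at 10.

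LOC_Os07g08890 (chromosome 7, 4618666 to 4622813) was at 3.66, 2.64 and 3.24 RPKM in the P1MH libraries, 2.87, 4.06 and 3.85 RPKM in the P3MH libraries and 0.463, 0.526 and 0 RPKM in the WT libraries. LOC_Os08g05340 (chromosome 8, 2808273 to 2813026) was at 4.47, 4.59 and 5.03 RPKM in the P1MH libraries, 5.22, 4.72 and 5.80 RPKM in the P3MH libraries and 0.810, 1.10 and 0.633 RPKM in the WT libraries. LOC_Os08g05340 had the narrowest spread among the mutant libraries, its highest being 1.30 times its lowest, against a median of 2.18 over the members. The widest spread, 10.2 times, was that of LOC_Os09g09690, chosen after its values were seen, at 0.432, 1.88 and 0.544 RPKM in the P1MH libraries, 1.57, 2.01 and 4.40 RPKM in the P3MH libraries and 0.149, 0.237 and 0.215 RPKM in the WT libraries.

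Just inside the threshold lay LOC_Os06g24490 with a ratio of 1.507, LOC_Os05g31140 with 1.511 and LOC_Os10g34730 with 1.514. Just outside lay LOC_Os01g54700, LOC_Os10g05970 and LOC_Os09g30418, each with a ratio of 1.499. LOC_Os09g30418 is an abundant transcript, with 293.6 RPKM in its lowest mutant library and 196 RPKM in its highest WT library. In all, 510 genes had a ratio between 1 and 1.5.

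Many members were low transcripts. Their median level over the 9 libraries was 3.50 RPKM, against 6.17 RPKM for the other genes tested, and 23 members had a mean below 2 RPKM while 21 reached 10 RPKM. A WT library was at 0 for 10 members. The median member had 18.25 reads in its highest WT library and 35.5 reads in its lowest mutant library, and for 11 members the lowest mutant library held under 10 reads. Read numbers are exact only where 1 exon length could explain the values, as for 51 members, and may be too small for the others. The median coefficient of variation of the members was 26.6% in P1MH, 19.6% in P3MH and 22.2% in WT, against 18.2, 18.9 and 13.6% for the other genes.

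The choice set no condition on the difference between the mutant lines. It did require every library of both lines to stand above WT, which leaves out genes that are low in either line. In limma's fit over all 16064 genes, no member was called between P1MH and P3MH (limma, Benjamini-Hochberg adjusted over all genes), while 25 members had an unadjusted p below 0.05. Over all genes, 2 were called higher in P1MH (0.0125%) and 3 lower (0.0187%), and 2054 had an unadjusted p below 0.05. The median log2 difference of the members, P1MH minus P3MH, was 0.15, against 0.02 over all genes tested. It was above 0 for 48 members and below 0 for 32, and smaller than 0.5 in size for 60. All P1MH libraries lay above all P3MH libraries for 17 members and below them for 5, beside 8.81 and 6.47% of the genes tested.

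Without the library labelled P1MH replicate 3, 238 genes were called between the lines, 135 higher in P1MH (0.84%) and 103 lower (0.641%). Among them were 4 members, 2 in each direction. That library had been singled out for its likeness to P3MH, so leaving it out can by itself raise these counts. P1MH then rests on replicates 1 and 2. The median log2 difference of the members was then 0.10, against 0.04 over all genes. For 20 members P1MH replicates 1 and 2 both lay above all P3MH libraries, and the library labelled P1MH replicate 3 did so for 17 of these. For 15 members they both lay below, and that library did so for 5. Set against the other P1MH libraries in the same way, P1MH replicate 1 lay above P3MH for 17 of 19 members and below for 5 of 6, and P1MH replicate 2 lay above for 17 of 26 and below for 5 of 8.

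LOC_Os12g22970 (chromosome 12, 12986903 to 12989769) differed most. It was at 37.0, 42.2 and 90.3 RPKM in the P1MH libraries, 183, 194 and 138 RPKM in the P3MH libraries and 17.2, 19.1 and 20.4 RPKM in the WT libraries. The library labelled P1MH replicate 3 lay between the other P1MH libraries and P3MH, and the lines did not overlap. The log2 difference, P1MH minus P3MH, was -1.69 (SE 0.28, adjusted p = 0.0753) in limma's fit with all libraries, and -2.08 (SE 0.18, adjusted p = 2.88e-05) without that library. Over all alternatives the adjusted p ran from 2.88e-05 to 0.273. Relative to the WT mean its level was 2.99-fold in P1MH and 9.11-fold in P3MH.

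LOC_Os01g41140 (chromosome 1, 23291659 to 23292667) was higher in P1MH replicates 1 and 2 than in any other library. It was at 29.1, 20.1 and 7.24 RPKM in the P1MH libraries, 8.28, 7.43 and 7.12 RPKM in the P3MH libraries and 4.41, 4.15 and 3.79 RPKM in the WT libraries. The library labelled P1MH replicate 3 lay within the range of P3MH. The log2 difference was 1.01 (SE 0.37, adjusted p = 0.299) in limma's fit with all libraries and 1.55 (SE 0.18, adjusted p = 0.000502) without that library, while the adjusted p over all alternatives ran from 0.000502 to 0.517.

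LOC_Os06g37140 (chromosome 6, 21936885 to 21943005) was at 69.4, 55.0 and 60.6 RPKM in the P1MH libraries, 30.8, 32.5 and 41.0 RPKM in the P3MH libraries and 6.15, 7.70 and 6.66 RPKM in the WT libraries. The genotypes did not overlap, and the library labelled P1MH replicate 3 lay with the other P1MH libraries. The log2 difference was 0.81 (SE 0.15, adjusted p = 0.0834) in limma's fit and 0.82 (SE 0.17, adjusted p = 0.0403) without that library, with an adjusted p of 0.0403 to 0.284 over all alternatives. LOC_Os09g06950, whose values are given above, had a log2 difference of -0.76 (SE 0.27, adjusted p = 0.284) in limma's fit and -1.08 (SE 0.23, adjusted p = 0.0388) without that library, which lay within the range of P3MH. Its adjusted p over all alternatives ran from 0.0388 to 0.474.

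**Figure D4:**
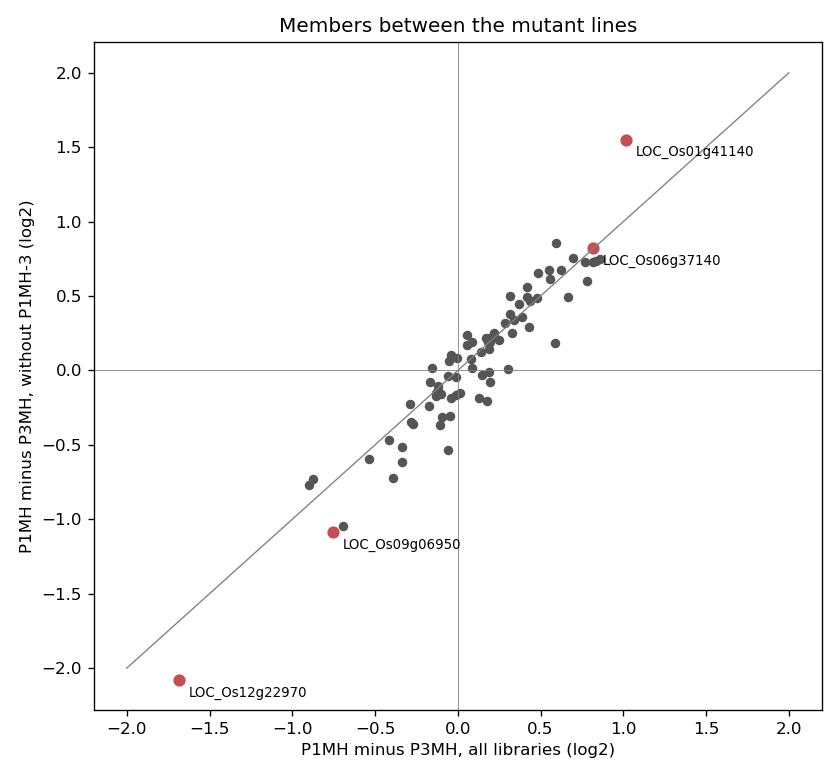
Log2 difference, P1MH minus P3MH, of the 80 members with all libraries (horizontal) and without the library labelled P1MH replicate 3 (vertical), with the line of equal values. The 4 members in red had an adjusted p below 0.05 in limma's fit without that library, and none had with all libraries.

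The next smallest p values between the lines belonged to members that missed the threshold with and without that library. LOC_Os03g18110 (chromosome 3, 10105981 to 10108026) was at 4.41, 2.84 and 4.59 RPKM in the P1MH libraries, 2.10, 2.02 and 1.20 RPKM in the P3MH libraries and 0.699, 0.545 and 0.625 RPKM in the WT libraries, with a log2 difference of 0.83 (SE 0.21, adjusted p = 0.181) in limma's fit. GER2 had a log2 difference of 0.78 (SE 0.22, adjusted p = 0.218) in the same fit. Both were higher in all P1MH libraries than in any P3MH library. In the other direction, LOC_Os11g04520 (chromosome 11, 1894738 to 1914504) was at 14.7, 13.6 and 15.9 RPKM in the P1MH libraries, 18.7, 20.9 and 20.2 RPKM in the P3MH libraries and 6.92, 5.87 and 6.25 RPKM in the WT libraries, a log2 difference of -0.41 (SE 0.13, adjusted p = 0.254) in limma's fit. LOC_Os03g06970 (chromosome 3, 3555490 to 3558352) was at 5.86, 2.83 and 2.80 RPKM in the P1MH libraries, 8.02, 8.93 and 5.85 RPKM in the P3MH libraries and 0.107, 1.02 and 0.723 RPKM in the WT libraries, a log2 difference of -0.87 (SE 0.28, adjusted p = 0.258). For this last locus P1MH replicate 1 overlapped with P3MH.

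The members lay on all 12 chromosomes, from 15 on chromosome 1 and 10 on chromosome 3 to 2 on chromosome 8. As a share of the genes tested, chromosome 11 held most (8 of 833, 0.96%) and chromosome 8 least (2 of 1045, 0.191%). No members were neighbours in the table. Of the 80, 7 (8.8%) lay within 200 kb of another member, against 9.5% of the other genes tested. The closest were LOC_Os03g04050 and LOC_Os03g04080, 13 kb apart, followed by LOC_Os01g41050 and LOC_Os01g41140, 41.0 kb apart. LOC_Os01g15780 lies 171.5 kb from RBP-P and was at 10.5, 9.86 and 7.23 RPKM in the P1MH libraries, 9.29, 10.2 and 8.69 RPKM in the P3MH libraries and 4.21, 4.25 and 4.50 RPKM in the WT libraries.

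Of 156 tested flanking genes, 12 were called higher and 6 lower than WT in P1MH by limma (7.69 and 3.85%, beside 3.18 and 5.63% of all genes). In P3MH, set against the same WT libraries, 6 were higher and 5 lower (3.85 and 3.21%, beside 1.67 and 3.1%). Without 1 library the flanking genes called higher numbered 5 to 12 in P1MH and 3 to 7 in P3MH, and their difference from the background was not tested. Where the exon length was unique, its median was 1511 bp for members and 1998 bp for other genes tested. Of the members, 8 overlap another locus, among them BC1, LOC_Os01g63810, LOC_Os11g01020 and LOC_Os11g04520, whose values are given above. Since the strand of counting is not stated, reads of these 8 may belong to the overlapping locus.

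None of the 37 loci of 6 lists of marker and pathway genes is a member, and 28 of these had a checked name. Members are 0.498% of all genes tested, so finding none among so few loci is no result about these lists. The seeds showed their labelled tissue, since the 10 checked genes of the starchy endosperm, such as the glutelins, summed to 102319 to 111676 RPKM in P1MH, 94918 to 103266 RPKM in P3MH and 83147 to 88325 RPKM in WT, with none at 0. Most of each sum came from glutelins. In limma's fit, 5 of the 10 estimates were above 0 in P1MH (median log2 difference 0.09) and 9 in P3MH (median 0.16). Over all genes, limma called 3.18% higher and 5.63% lower in P1MH, and 1.67% higher and 3.1% lower in P3MH. By limma, GluA-1 and GluA-2 were called higher in P1MH, but GluA-1 in 6 and GluA-2 in 9 of the 16 alternatives. Both glutelin calls were lost after quantile normalization and in a fit blocked on replicate number. Both were also lost without any 1 of the P1MH libraries, WT replicate 2 or WT replicate 3. The GluA-1 call was lost as well without WT replicate 1, P3MH replicate 1 or P3MH replicate 3. NF-YB1, a transcription factor subunit of the endosperm, was called lower in P1MH and in 12 of 16 alternatives, not after quantile normalization nor without P1MH replicate 1, WT replicate 1 or WT replicate 2. Its call as lower in P3MH held in 4 of 16, and was lost without P1MH replicate 2 or any 1 of the P3MH or WT libraries. That call was also lost with no filter on low values, after either rescaling, without trend or robust moderation and in the fit blocked on replicate number.

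Over 7 checked genes of the embryo and aleurone list, such as the oleosin OLE18 and the late embryogenesis gene LEA3, the summed level was 722 to 1043 RPKM in P1MH, 549.9 to 852 RPKM in P3MH and 404 to 615 RPKM in WT. RAB16D was at 0 in 5 libraries and RAB16C in 1. In limma's fit, the estimates of all 6 genes tested were above 0 in both lines (median log2 difference 0.89 in P1MH and 0.63 in P3MH). Of these 6, OLE18, RAB16B and RAB16C were called higher in P1MH and 0 were called in P3MH. Over all genes, 3.18% were called higher in P1MH and 1.67% in P3MH. The OLE18 call held in 15 of 16 alternatives, all but that without WT replicate 3, and the RAB16B call in 15 of 15. The RAB16C call held in 5 of 15, and was lost without any 1 of the P1MH or WT libraries or P3MH replicate 3. It was also lost with a pseudocount of 0.1, with no filter on low values and in the fit blocked on replicate number. RAB16B was called in P3MH in 2 of 15 alternatives.

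Over 6 checked genes of dividing cells the summed level was 17.5 to 24.1 RPKM in P1MH, 26.2 to 31.6 RPKM in P3MH and 40.3 to 60.8 RPKM in WT, with none at 0. In limma's fit, 0 of the 6 estimates were above 0 in either line (median log2 difference -1.01 in P1MH and -0.60 in P3MH). Of these genes, 5 were called lower in P1MH (4 to 5 without 1 library), beside 5.63% of all genes. The MCM7 call was lost without P1MH replicate 3, WT replicate 2 or WT replicate 3. PCNA, the sliding clamp of DNA replication, was the 1 called lower in P3MH (0 to 1 without 1 library), beside 3.1% of all genes. That call held in 5 of 16 alternatives, and was lost without any 1 of the P3MH or WT libraries. It was also lost with no filter on low values, after either rescaling, without trend or robust moderation and in the fit blocked on replicate number. Plastocyanin, the 1 checked gene of green tissue, was at 31.8 to 34.4 RPKM in P1MH, 31.8 to 49.3 RPKM in P3MH and 47.4 to 58.7 RPKM in WT. Its call as lower in P1MH held in 8 of 16 alternatives, and was lost after either rescaling, with no filter on low values and without P1MH replicate 1, P1MH replicate 3 or any 1 of the WT libraries. It was not called in P3MH, except in 1 of 16 alternatives. The 3 genes of protein folding in the endoplasmic reticulum, with 2508 to 3208 RPKM in P1MH, 3435 to 5862 RPKM in P3MH and 4028 to 4386 RPKM in WT, were not called in P3MH. In P1MH, PDIL1-1 missed the threshold (adjusted p = 0.0532) and was called lower in 4 of 16 alternatives. GAPDH, with 92.0 to 141 RPKM in P1MH, 111 to 156 RPKM in P3MH and 139.5 to 161 RPKM in WT, was called in neither line. The part of these levels in the members' values was not tested.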

How the data were processed

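ScriptSeq v2 libraries were prepared from dehulled seeds, per the labels' protocols. The authors deposited 1 table of RPKM values, per the file headers, with no aligner, counting tool, strand setting or genome build given in the sources used here. All 9 columns were matched to libraries by name, and 0 were left unused. Each genotype had 3 libraries, and nothing used here says whether they came from separate plants, so p-values measure the spread between these libraries.

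Members were chosen by the 3 conditions given above, and the members and lists were chosen with earlier results of these data known. Named genes are the 8 members with the highest mean, the 8 with the highest ratio, all with a checked name, those called between the lines or else the 3 smallest p values in each direction, and 3 genes on each side of the threshold. A name was checked when RefSeq placed it on the same chromosome with a span of 0.8 to 1.25 times that of the table and at least 3 neighbours within 300 kb showed the same shift.

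Reads were recovered from the RPKM steps, since a value is a multiple of what 1 read is worth. Steps of 0.5 read were allowed in the WT libraries only. Intervals and floors of 3 reads cover counting error only. No count test was run. The test was limma 3.58.1 (R 4.3.3) with trend and robust variance options, run on log2(RPKM + 1) of the 16064 genes averaging 1 RPKM or more, with all 9 libraries in 1 fit and Benjamini-Hochberg adjustment at 0.05. The added 1 shrinks the fold change of genes with low RPKM. The script was tested on simulated data. Tables and figures used pandas 2.3.3, numpy 2.4.6 and matplotlib 3.10.9 in Python 3.11.15. Alternatives were other pseudocounts, filters, scalings and moderation, a replicate block and leaving out each library.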

Additional observations from a re-analysis of the deposited data

How the results depend on the processing

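The number of members was 80, and it was 179 with the lower ratio tried, 34 with a ratio of at least 2, 29 with a mean of at least 5 RPKM, 121 with no filter on low values and 126 with no lower bound on the WT level. With the 15 loci at 0 kept, an alternative chosen after seeing the data, it was 95. Without 1 library it was 85 to 175, the highest without WT replicate 1 and 122 without P3MH replicate 3. Between P1MH and P3MH, 5 genes were called with the settings used, 2 with a pseudocount of 0.1, 0 with no filter on low values and 3 with limma without trend or robust moderation. Without 1 library it was 0 to 238, the highest without the library labelled P1MH replicate 3, and the members called were 0 to 4. The median P1MH minus P3MH log2 difference of the members was 0.08 to 0.17 without 1 library. Against WT, 1416 genes were called in P1MH, and 622 to 1457 without 1 library. In P3MH 766 were called, 436 with a mean of at least 5 RPKM, and 365 to 896 without 1 library. After median-ratio rescaling the split was 657 higher and 572 lower in P1MH, against 511 and 905 as deposited, and 407 higher and 331 lower in P3MH, against 268 and 498. A fit blocked on replicate number called 5 genes between the lines, 1178 in P1MH and 650 in P3MH against WT, and 0 members between the lines. Deviations of same-numbered libraries from their group means correlated at -0.31 to 0.11, so no large shared effect of replicate number was seen. Whether same-numbered libraries were grown or prepared together is not stated in the sources used here and was not tested. Depth limits the low members: 8 have at most 3 recovered reads in every WT library, a number that may be too small where the exon length is not unique.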
